A study of Mus musculus with 3 samples.

Results

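Chondrocytes that carried UMIs of the tendon genes Tnmd or Thbs4, or of the WNT antagonist Sfrp5, were 265 of 5463 cells kept from 3 single-cell libraries of mouse fracture callus. A UMI (unique molecular identifier) is a tag that counts 1 captured RNA molecule. A barcode was kept as a cell with 500 or more genes detected and no more than 10% of its UMIs mitochondrial. The chondrocyte part of the rule asked for Col2a1 at 1% or more of a cell's UMIs and above Col1a1, and Col10a1 below 0.05%. It left 1841 Col10a1-low chondrocytes, and 265 of these had at least 5 UMIs of Tnmd, Thbs4 and Sfrp5 together, so that the members were chosen by measured UMIs of these 3 genes and of the 3 collagen genes. The remaining 1576 are called other chondrocytes here. The levels of these 6 genes therefore describe the choice and are not findings.

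The libraries came from callus taken on day 7 after the femur was pinned and broken at midshaft. All mice were female C3H/HeJ, a strain that heals fractures slowly, and were 9 weeks old at surgery. In the PTH group they received PTH 1-34 at 100 µg/kg. In the YKL group they received YKL-05-099, an inhibitor of the salt-inducible kinases, at 15 mg/kg. Control mice received the PBS vehicle, and every group was injected under the skin daily. Each group had 1 library of collagenase-released cells made with a droplet 3′ kit, and the sources used here give no number of mice for it. No test between groups was possible with 1 library each, and none was made between cell pools, since cells of a library are not replicates. Intervals are 95% exact intervals and cover counting error only.

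Chondrocytes of a fracture callus build the cartilage that bone later replaces, and Col10a1 marks those that enlarge at the end of that course. Tenomodulin (Tnmd) is a membrane protein best known from tendon and ligament, and thrombospondin 4 (Thbs4) is a matrix glycoprotein of tendon and muscle. Sfrp5 is secreted and binds WNT ligands. In mouse embryos, cells that carry both cartilage and tendon factors are known from the sites where tendon joins bone. In the RefSeq annotation of GRCm38, the assembly that mm10 names, Tnmd lies on chrX:133851008-133865577, Thbs4 on chr13:92751586-92794818 and Sfrp5 on chr19:42197971-42202252.

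The PTH, YKL and Control libraries held 5286, 1500 and 8021 barcodes, of which 1913, 606 and 2944 passed the cell filters, with medians of 12293, 25870 and 11736 UMIs. Between 2 and 8 barcodes were shared by any pair of libraries, and none of them belonged to a Tnmd/Thbs4/Sfrp5 chondrocyte. Haemoglobin RNA, a sign of free or red cell RNA, differed between libraries. It summed to 1831, 240 and 7294 CPM (counts scaled to a total of 1000000) in the Tnmd/Thbs4/Sfrp5 chondrocytes of the PTH, YKL and Control libraries, and to 4515, 280 and 16100 CPM in their other chondrocytes. Without the top cell of each haemoglobin gene, the median log2 ratio over other chondrocytes went from -1.266 to -3.415 in the PTH library. In the Control library it went from -1.298 to -1.677. The part of haemoglobin RNA in the results below was not tested.

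Tnmd/Thbs4/Sfrp5 chondrocytes were most frequent in the PTH library and nearly absent from the YKL library. They numbered 139 of 472 Col10a1-low chondrocytes in the PTH library (29.5%, interval 25.4 to 33.8), 3 of 145 in the YKL library (2.07%, 0.429 to 5.93) and 123 of 1224 in the Control library (10.1%, 8.42 to 11.9). The PTH share was 2.93 times the Control share. The intervals cover counting error within a library and are no test between groups. As a share of all kept cells they were 7.27% in the PTH, 0.495% in the YKL and 4.18% in the Control library. Col10a1-low chondrocytes were 24.7%, 23.9% and 41.6% of kept cells, so the first set of shares has a base that itself differed.

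A minimum of 5 UMIs is easier to reach in deep cells. After each cell was thinned to 5000 UMIs, 114 of 453 PTH cells (25.2%), 1 of 141 YKL cells (0.709%) and 114 of 1169 Control cells (9.75%) had at least 2 UMIs of the 3 genes. The order of the libraries was the same, and the YKL library, whose cells were deepest, was lowest in both counts. Cells with 0 UMIs of all 3 genes were 33.1% of Col10a1-low chondrocytes in the PTH, 85.5% in the YKL and 67.5% in the Control library. The threshold cut a continuous range. Just inside it, at 5 UMIs, were 19 PTH, 1 YKL and 20 Control cells, and just outside, at 4 UMIs, were 25, 1 and 38. The chosen cells had a median of 9 UMIs of the 3 genes in each library and a highest value of 104, 36 and 71.

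The PTH and Control shares lay farther apart for cells led by Sfrp5 than for cells led by the tendon genes. Cells with more Sfrp5 than Tnmd and Thbs4 UMIs together (Sfrp5-led) were 56 in the PTH, 2 in the YKL and 24 in the Control library, or 11.9%, 1.38% and 1.96% of Col10a1-low chondrocytes. Those with more Tnmd and Thbs4 (tendon-led) were 77, 1 and 94 cells, or 16.3%, 0.690% and 7.68%. The PTH share was thus 6.05 times the Control share for Sfrp5-led cells and 2.12 times for tendon-led cells. The other 6 PTH and 5 Control cells were tied.

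**Figure D1:**
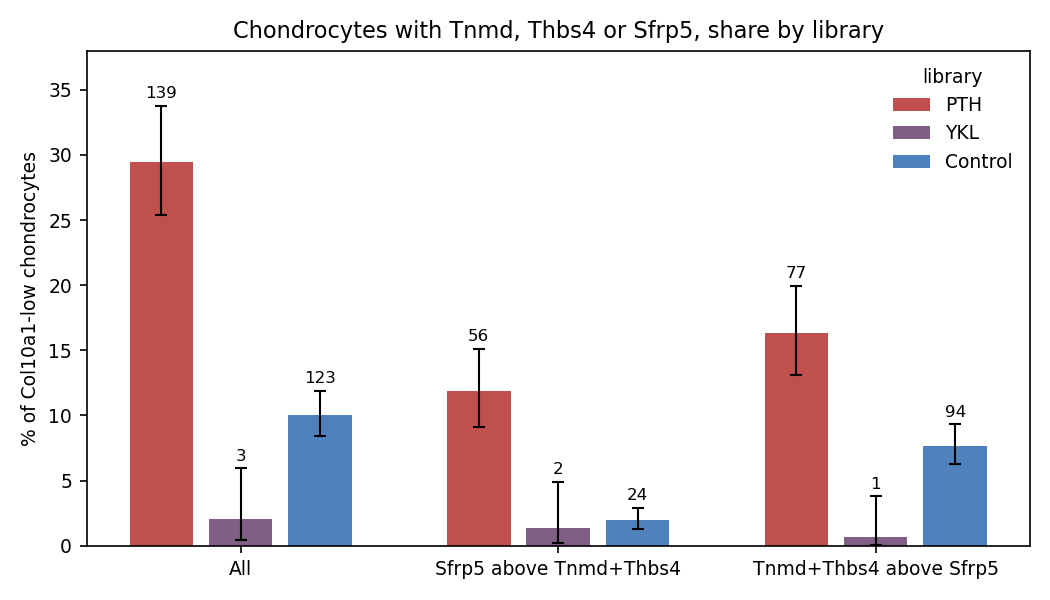
Share of Col10a1-low chondrocytes (percent, from 0) that had at least 5 UMIs of Tnmd, Thbs4 and Sfrp5, for all such cells and for the Sfrp5-led and tendon-led cells. Bars stand for the 1 library of each group, error bars are 95% exact binomial intervals and the number above each bar is its cells. The PTH bar is the highest of each set, and the Sfrp5-led bars are 11.9%, 1.38% and 1.96%.

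How the 3 genes fell together in cells is a description too, since the cells were chosen on them. All 3 had a UMI in 64 of 139 PTH cells (46.0%, 37.6 to 54.7), 0 of 3 YKL cells and 19 of 123 Control cells (15.4%, 9.56 to 23.1). Sfrp5 had a UMI in 113 PTH cells and 56 Control cells, while Tnmd had one in 110 and 103. Thbs4 had one in 105 PTH and 74 Control cells. Of the Sfrp5-led cells, 6 of 56 in the PTH library (10.7%) and 13 of 24 in the Control library (54.2%) had UMIs of Sfrp5 alone. Median depth was 21574 UMIs in the PTH cells and 17793 in the Control cells, and these counts were not thinned.

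The levels of the 3 genes describe the chosen cells in the same way and are no test of the libraries. Sfrp5 summed to 234 CPM in PTH cells and 112 CPM in Control cells. Thbs4 stood at 137 CPM in PTH cells and 98.9 CPM in Control cells, with 19.0% of the PTH UMIs from 1 cell. Tnmd was at 188 CPM in PTH cells and 403 CPM in Control cells. The count of Tnmd UMIs per Thbs4 UMI was 1.37 in PTH cells and 4.07 in Control cells. The cells below the threshold also held these genes, with Tnmd at 20.1, 0.858 and 12.4 CPM and Sfrp5 at 26.2, 3.65 and 12.9 CPM in the other chondrocytes of the PTH, YKL and Control libraries.

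**Figure D2:**
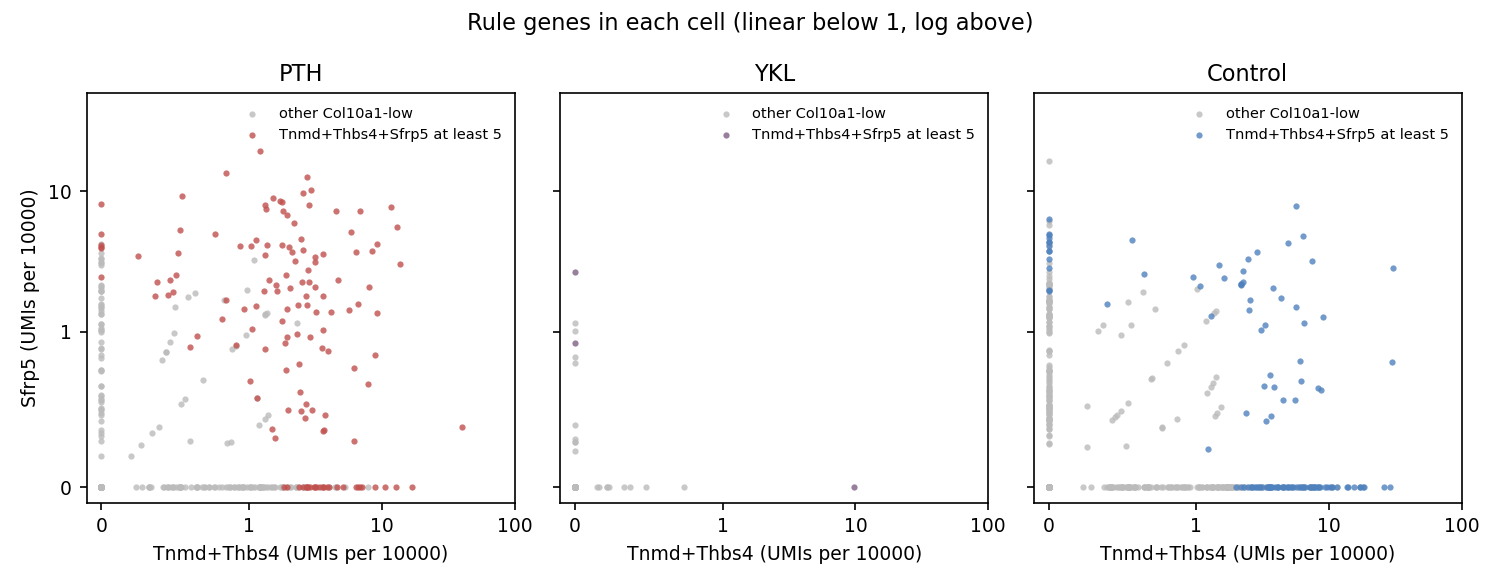
Tnmd and Thbs4 together (x axis) against Sfrp5 (y axis), in UMIs per 10000 UMIs of the cell, for each Col10a1-low chondrocyte of the PTH, YKL and Control libraries. Axes are linear below 1 and logarithmic above. Coloured points are the 139, 3 and 123 cells with at least 5 UMIs of the 3 genes and grey points the other chondrocytes, and 113 of the 139 PTH points and 56 of the 123 Control points lie above 0 on the Sfrp5 axis.

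The 3 YKL cells shared little. The first had 37182 UMIs in all, with 31 of Tnmd, 5 of Thbs4 and 0 of Sfrp5. The second had 33883 UMIs, with 9 of Sfrp5 and 0 of both tendon genes. The third had 54009 UMIs, with 5 of Sfrp5, 16 of Ihh, the hedgehog ligand of prehypertrophic chondrocytes, and 11 of Col10a1. They are too few for levels to be compared, and what follows concerns the PTH and Control libraries.

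Most cartilage matrix genes were within 1.5-fold of their level in other chondrocytes. Acan, the core protein of aggrecan, was at 5312 CPM in PTH Tnmd/Thbs4/Sfrp5 chondrocytes and 4874 CPM in other PTH chondrocytes, and at 4634 and 4423 CPM in the Control library. Sox9, the master regulator of cartilage, was at 700 and 723 CPM in the PTH library and at 620 and 776 CPM in the Control library. Of 19 genes of cartilage matrix, 0 reached 1.5-fold on the higher side and 1 on the lower side in the PTH library, and 3 were higher and 0 lower in the Control library. Both pools had been chosen on Col2a1, so similar levels of cartilage genes are no test of the chondrocyte label.

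Of the defining tendon cell genes other than the 2 in the rule, Kera, Scx and Mkx were low. Keratocan (Kera), a proteoglycan of tendon and cornea, had 19 UMIs in 9 of the 139 PTH cells, with 47.4% of them from 1 cell, and 0 UMIs in the 3 YKL and 123 Control cells. Scleraxis (Scx), a transcription factor of tendon progenitors, was at 11.2 CPM in PTH cells and 10.7 CPM in other PTH chondrocytes, a ratio of 1.05 (0.673 to 1.61). In the Control library Scx was at 23.8 and 8.84 CPM, a ratio of 2.69 (1.94 to 3.66). Mohawk (Mkx), another tendon transcription factor, was at 10.6 and 5.54 CPM in the PTH library and at 8.21 and 6.12 CPM in the Control library, with an interval that includes 1 in the Control library only.

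Cells with tendon RNA and Col2a1 under 1%, called tendon cells here, were present beside them, mostly in the PTH library. Cells with at least 5 UMIs of Tnmd and Kera and Col2a1 under 1% were 248 of 1913 kept PTH cells (13.0%), 0 of 606 YKL cells, which allows a share of up to 0.495% by a floor of 3 counts and 0.607% by the exact interval, and 19 of 2944 Control cells (0.645%). In the PTH library these tendon cells held Tnmd at 3719 CPM, Kera at 1433 CPM, Scx at 593 CPM and Sfrp5 at 3.32 CPM. The number of Tnmd UMIs per Kera UMI was 30.8 in PTH Tnmd/Thbs4/Sfrp5 chondrocytes and 17.1 in other PTH chondrocytes, against 2.60 in PTH tendon cells. Within the Tnmd/Thbs4/Sfrp5 chondrocytes it was 16.0 in Sfrp5-led and 38.8 in tendon-led cells. Tnmd helped to choose or divide each of these pools, and Kera the tendon cells, so these ratios describe the choice and are no test.

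Endothelial cells are not known for these genes, and their UMIs of them are given for comparison. Endothelial cells (at least 5 UMIs of Pecam1, Cdh5 and Emcn and Col2a1 under 1%) numbered 296 in the PTH library, of which 5 also met the tendon cell rule. Thinning to 5000 UMIs left out cells with fewer, so the shares that follow are not over all 296. Of the remaining PTH endothelial cells, 5.62% had a Tnmd UMI, 9.55% one of Thbs4 and 0.562% one of Sfrp5. The same shares were 48.6%, 34.1% and 58.0% in PTH Tnmd/Thbs4/Sfrp5 chondrocytes and 10.8%, 10.8% and 12.4% in other PTH chondrocytes. The chondrocyte pools were split at 5 UMIs of these genes, so the order between them was set by the rule. The endothelial cells were not chosen on these genes, and the shares are no test of one pool against another. Median depths before thinning were 21574, 17096 and 6566 UMIs in the Tnmd/Thbs4/Sfrp5 chondrocytes, the other chondrocytes and the endothelial cells. Doublets were not removed from these barcodes. The endothelial cells held 2.67 Tnmd UMIs per Kera UMI, against 2.60 in the tendon cells. They held 0.594 Tnmd UMIs per Thbs4 UMI, against 1.05 in the tendon cells. The 5 cells that also met the tendon cell rule were kept in these sums, and the source of the UMIs was not tested.

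Set beside other chondrocytes of their own library, the Tnmd/Thbs4/Sfrp5 chondrocytes had more RNA of Ogn, Abi3bp, Ecm2 and Aspn and less of Atf3, Adm, Cdkn1a and Lox in both libraries. Of the 8612 genes with at least 50 UMIs over both pools of the PTH library, 4.82% reached 1.5-fold on the higher side and 3.9% on the lower side, and 1.28% and 0.871% reached 2-fold. In the Control library 10.3% of 10400 genes were higher and 10% lower, and 3.15% and 4.77% at 2-fold. Among genes counted in both libraries 144 were higher in both, or 35.0% of the 412 PTH and 20.5% of the 704 Control genes, and 100 were lower in both, or 29.9% of 334 and 16.1% of 623. These libraries share no cells. A named gene of each direction had to reach 50 CPM in a pool and pass 1.5-fold in both libraries, which 11 higher and 15 lower genes did.

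Osteoglycin (Ogn), a small leucine-rich proteoglycan that is among the marker genes of the label, was higher in both libraries. It was at 336 CPM in PTH Tnmd/Thbs4/Sfrp5 chondrocytes and 169 CPM in other PTH chondrocytes, a ratio of 1.99 (1.82 to 2.17). In the Control library it was at 383 and 140 CPM, a ratio of 2.74 (2.54 to 2.96). Single cells overlapped widely, with medians of 2.52 UMIs per 10000 in PTH Tnmd/Thbs4/Sfrp5 chondrocytes and 0.851 in other PTH chondrocytes, and of 2.89 and 0.668 in the Control library.

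Abi3bp, a matrix-binding protein, was at 89.3 and 22.6 CPM in the PTH library, a ratio of 3.94 (3.20 to 4.88), or 2.78 without its top cell. In the Control library it was at 103 and 12.6 CPM, a ratio of 8.19 (6.82 to 9.84). Ecm2, another leucine-rich matrix protein, had ratios of 2.09 (1.77 to 2.46) and 2.69 (2.25 to 3.21) in the PTH and Control libraries. Asporin (Aspn), a proteoglycan that binds collagen, had ratios of 2.29 (2.13 to 2.45) and 1.60 (1.49 to 1.72). Of 11 small leucine-rich proteoglycans measured in the PTH library, 4 were higher and 0 lower (Ogn, Omd, Aspn and Ecm2), with a median log2 ratio of 0.31. Of 12 measured in the Control library, 4 were higher and 1 lower, with a median of 0.47. The median over all genes was 0.01 in the PTH and 0.06 in the Control library.

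Col14a1, a collagen that sits on fibrils, is also among the marker genes of the label and was higher in the Control library. It was at 113 CPM in Control Tnmd/Thbs4/Sfrp5 chondrocytes and 11.9 CPM in other Control chondrocytes, a ratio of 9.49 (7.91 to 11.4), and 63 of 123 cells had a UMI. In the PTH library it was at 37.9 and 16.3 CPM, a ratio of 2.33 (1.77 to 3.08), but 44.9% of the UMIs came from 1 cell and without it the ratio was 1.40. With a minimum of 10 rule UMIs the PTH ratio was 0.470.

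Of the tendon and ligament list without the rule genes, 7 of 18 measured genes were higher and 0 lower in the PTH library (median log2 ratio 0.35), and 10 of 19 were higher and 2 lower in the Control library (0.61). Cilp2 and Cpxm2 were among the higher genes of both libraries. Of fibroblast and progenitor genes, 6 of 11 were higher and 1 lower in the PTH library (median 1.27), and 7 of 13 were higher and 0 lower in the Control library (0.94). Without each gene's top cell 5 were higher and 1 lower in the PTH library (median 0.51), and 4 were higher and 1 lower in the Control library (0.36). Under the rule of 0.05% of UMIs described below the PTH median was -0.03. The PTH median was 0.32 without the 12 PTH cells that held a Kera UMI or at least 3 UMIs of Pecam1, Cdh5 and Emcn.

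**Figure D3:**
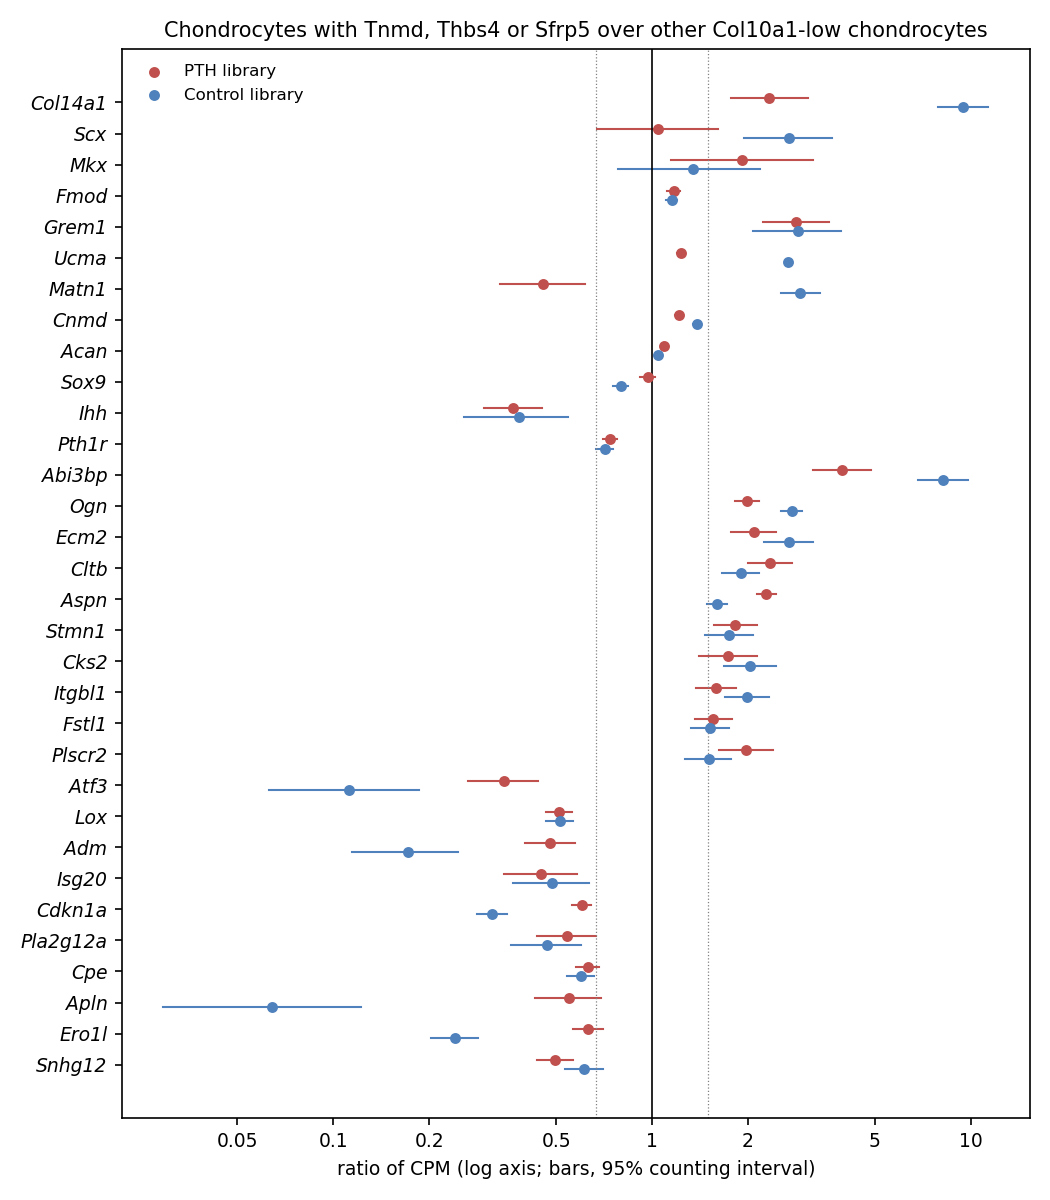
Ratio of summed CPM in Tnmd/Thbs4/Sfrp5 chondrocytes over other Col10a1-low chondrocytes, on a logarithmic axis, within the PTH (red) and the Control (blue) library. Bars are 95% counting intervals, dotted lines mark 1.5-fold either way, and Ogn, Abi3bp and Ecm2 lie to the right in both libraries while Matn1 lies left in PTH (0.456) and right in Control (2.92).

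Other genes higher in both libraries belonged to no single list. Gremlin 1 (Grem1), a secreted antagonist of BMPs, was at 55.9 and 19.8 CPM in the PTH library and at 24.2 and 8.42 CPM in the Control library, with ratios of 2.83 (2.22 to 3.60) and 2.87 (2.08 to 3.92). Only 37 of 139 PTH cells and 15 of 123 Control cells had a UMI of it, and without its top cell the Control ratio was 1.88. Cltb, a clathrin light chain, had ratios of 2.35 and 1.90, Itgbl1, a protein related to integrin beta chains, of 1.59 and 1.99, Fstl1, a secreted follistatin-like protein, of 1.56 and 1.52, and Plscr2, a scramblase, of 1.97 and 1.5.

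The rest concerned cell division. Stmn1, which regulates microtubules, had ratios of 1.82 and 1.75 in the PTH and Control libraries, and Cks2, a partner of cyclin-dependent kinases, of 1.73 and 2.04. Without the deepest 5% of barcodes the PTH ratio of Cks2 was 0.831. Of 15 genes of G2 and M phase, 15 were higher in the PTH library (median log2 ratio 1.07) and 14 in the Control library (1.26). They came from few cells. At least 5 UMIs of the list were found in 9 of 139 PTH Tnmd/Thbs4/Sfrp5 chondrocytes and 11 of 333 other PTH chondrocytes, and in 7 of 123 and 32 of 1101 in the Control library. After thinning to 5000 UMIs, 8 of 138 and 9 of 315 PTH cells and 7 of 123 and 22 of 1046 Control cells had at least 3. Where the 3 rule genes had instead to make up 0.05% of a cell's UMIs, the medians were -0.43 in the PTH and -0.89 in the Control library, so the direction turned with that rule.

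The genes lower in both libraries were led by Atf3 and Lox. Atf3, a transcription factor of the stress response, was at 24.4 and 71.3 CPM in the PTH library, a ratio of 0.343 (0.265 to 0.438), and at 6.48 and 57.8 CPM in the Control library, a ratio of 0.112 (0.0626 to 0.186). Adrenomedullin (Adm), a peptide hormone, had ratios of 0.480 and 0.171, apelin (Apln), another peptide ligand, of 0.548 and 0.0641, and Ero1l, an oxidase of the endoplasmic reticulum, of 0.629 and 0.241. Cdkn1a, which encodes the cell cycle inhibitor p21, had ratios of 0.601 and 0.315. Lysyl oxidase (Lox), which crosslinks collagen, had ratios of 0.511 (0.464 to 0.562) and 0.513 (0.464 to 0.567). The remaining named genes were Isg20, Pla2g12a, Cpe and Snhg12, with ratios between 0.448 and 0.629.

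Of hypertrophy genes, Ihh was lower in both libraries, in cells that the rule had already kept low in Col10a1. Ihh was at 34.7 and 94.4 CPM in the PTH library, a ratio of 0.367 (0.296 to 0.452), and at 13.4 and 35.1 CPM in the Control library, a ratio of 0.381 (0.257 to 0.547). Pth1r, the receptor through which PTH acts, was at 645 and 872 CPM in the PTH library and at 492 and 693 CPM in the Control library, with ratios of 0.740 and 0.710, which do not reach 1.5-fold. Of hypertrophy genes other than Col10a1, 0 of 10 were higher and 3 lower in the PTH library (median log2 ratio -0.55), and 2 of 11 (Spp1 and Loxl4) were higher and 5 lower in the Control library (-0.49). Gdf5, a ligand of joint-forming cells, had ratios of 0.638 and 0.661. Prg4, the lubricin of joint surfaces, was low in these pools, at 11.6 and 8.22 CPM in the PTH library and 1.30 and 2.72 CPM in the Control library.

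The relation to cartilage matrix genes was not the same in both libraries. Ucma, a small secreted protein of immature cartilage, was at 2249 and 1821 CPM in the PTH library, a ratio of 1.24, and at 4678 and 1750 CPM in the Control library, a ratio of 2.67 (2.62 to 2.73). The median Control cell had 43.0 UMIs per 10000 of Ucma among Tnmd/Thbs4/Sfrp5 chondrocytes and 6.97 among other chondrocytes. Matrilin 1 (Matn1), a matrix protein of non-articular cartilage, was at 17.7 and 38.8 CPM in the PTH library, a ratio of 0.456 (0.334 to 0.614), and at 118 and 40.4 CPM in the Control library, a ratio of 2.92 (2.53 to 3.36). With a minimum of 3 rule UMIs the PTH ratio of Matn1 was 1.02. Cnmd (chondromodulin), which is related to Tnmd in sequence, was at 2001 and 1646 CPM in the PTH library and 2474 and 1787 CPM in the Control library.

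Across all Col10a1-low chondrocytes Ogn and Abi3bp were higher, and Atf3 lower, with 10 and more rule UMIs than with 0 in both libraries, while Col14a1, Matn1 and Ucma kept to no one direction over the bins of the PTH library. Ogn was at 112 CPM in PTH cells with 0 rule UMIs, 203 CPM with 1 to 3, 256 CPM with 4, 341 CPM with 5 to 9 and 331 CPM with 10 and over. In Control cells it was at 114, 198, 288, 351 and 420 CPM. At exactly 5 rule UMIs, a part of the bin of 5 to 9, Ogn was at 239 CPM in 19 PTH cells and 167 CPM in 20 Control cells, below its level at 4. Lox was at 397, 91.9, 228 and 164 CPM with 0, 4, exactly 5, and 10 and over in PTH cells. In Control cells it was at 398, 127, 358 and 143 CPM, so cells just inside the threshold had more Lox than those just outside. Abi3bp was at 18.1 CPM in PTH cells with 0 rule UMIs and 123 CPM with 10 and over, and at 8.35 and 142 CPM in Control cells. Atf3 was at 105 CPM with 0 rule UMIs and 25.9 CPM with 10 and over in PTH cells, and at 64.9 and 1.90 CPM in Control cells. In the bin of 10 and over, Matn1 was at 6.77 CPM in PTH cells and 88.3 CPM in Control cells.

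**Figure D4:**
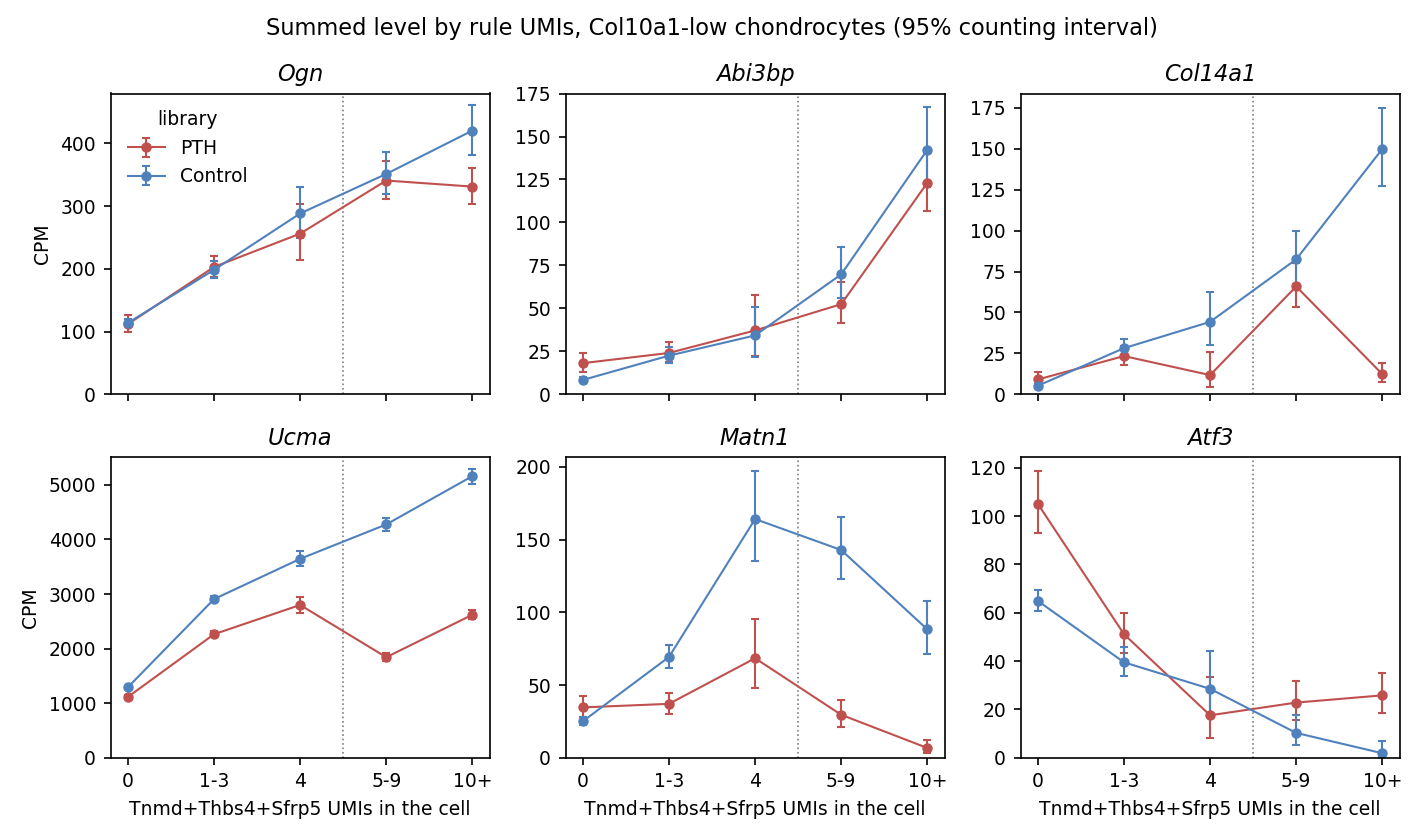
Summed level (CPM) of 6 genes in Col10a1-low chondrocytes of the PTH (red) and Control (blue) libraries, by the number of Tnmd, Thbs4 and Sfrp5 UMIs in the cell. Error bars are 95% counting intervals and the dotted line marks the threshold of 5. Ogn and Abi3bp are higher and Atf3 is lower on the right in both libraries, and right of the line Ucma, Matn1 and Col14a1 are higher in Control than in PTH.

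Sfrp5-led and tendon-led cells differed beyond the genes that divided them, with less Col14a1, Cthrc1 and Abi3bp RNA in Sfrp5-led cells of both libraries. Of 5307 genes with at least 50 UMIs over both PTH pools, 4.15% stood 1.5-fold or more higher in Sfrp5-led cells and 7.63% lower, and of 4509 in the Control library 8.32% were higher and 8.96% lower. Col14a1 was at 5.72 CPM in Sfrp5-led and 62.3 CPM in tendon-led PTH cells, a ratio of 0.0917 (0.0360 to 0.196), and at 18.8 and 143 CPM in Control cells, a ratio of 0.131 (0.0593 to 0.253). Haemoglobin RNA was lower too, with Hbb-bs at 222 CPM in Sfrp5-led and 1951 CPM in tendon-led PTH cells and at 905 and 6673 CPM in Control cells. These levels were not recomputed without a top cell, and the part of haemoglobin RNA in these ratios was not tested. Cthrc1, a secreted protein of matrix-forming fibroblasts, was at 31.8 and 195 CPM in the PTH library and at 87.6 and 224 CPM in the Control library.

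Spp1 (osteopontin) had ratios of 0.214 in the PTH and 0.493 in the Control library, Abi3bp of 0.323 and 0.432, Ccn2, a matricellular growth factor, of 0.403 and 0.481, and Col3a1 of 0.488 and 0.421. Matn1 was lower in Sfrp5-led cells of both libraries, with ratios of 0.367 (0.170 to 0.726) and 0.327 (0.201 to 0.507). Of tendon genes outside the rule 0 of 15 were higher and 5 lower in Sfrp5-led PTH cells, and 0 of 15 were higher and 8 lower in Sfrp5-led Control cells.

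Of 4427 genes measured in both libraries, 39 were higher in Sfrp5-led cells of both, or 28.7% of the 136 PTH and 10.7% of the 364 Control genes. Lower in both were 95, or 31.7% of 300 and 24.8% of 383. Among the 39, chosen after their values were seen, Stmn1 had PTH and Control ratios of 1.93 (1.498 to 2.493) and 3.75 (2.734 to 5.14), Isg20 of 1.72 and 3.13 and Mgarp of 1.66 and 2.77. Ndufa4l2, a mitochondrial protein induced by low oxygen, was at 1616 CPM in Sfrp5-led and 934 CPM in tendon-led PTH cells, a ratio of 1.73 (1.62 to 1.85), and had a Control ratio of 1.45 (1.31 to 1.61), under 1.5-fold. Inhba, a subunit of activins, was at 314 and 140 CPM in the PTH library, a ratio of 2.25 (1.91 to 2.65), and at 125 and 107 CPM in the Control library, a ratio of 1.17 (0.861 to 1.58). Hpgd, which degrades prostaglandins, was at 107 and 35.5 CPM in the PTH library, and at 6.26 and 6.92 CPM in the Control library. Sox9 and Acan had ratios between 1.01 and 1.30 over both libraries.

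Between the libraries, Tnmd/Thbs4/Sfrp5 chondrocytes of the PTH library had more Jun, Fosb and Fos RNA than those of the Control library, and less Matn1, Tgfbi and Igf2 RNA. Of 7225 genes, PTH cells had 7.52% higher by 1.5-fold or more and 7.45% lower, and 2.55% and 1.23% at 2-fold. In other chondrocytes 6.3% of 10743 genes were higher and 4.79% lower. Each library stands for 1 group, so treatment and library cannot be told apart.

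Hpgd was at 62.3 CPM in PTH cells and 6.48 CPM in Control cells, a ratio of 9.62 (5.69 to 17.5) from 194 and 15 UMIs. It had a UMI in 38 of 139 PTH cells and 7 of 123 Control cells, and in other chondrocytes its ratio was 2.30. Ramp1, a partner of the CGRP receptor, had ratios of 4.86 and 2.51 in Tnmd/Thbs4/Sfrp5 and other chondrocytes, and Ptgis, the prostacyclin synthase, of 3.39 and 1.51.

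The immediate early genes Jun, Fosb and Fos had ratios of 3.88 (3.53 to 4.27), 3.62 (3.14 to 4.19) and 3.27 (3.07 to 3.49), and of 1.37, 1.47 and 1.55 in other chondrocytes. Jun was at 867 CPM in PTH cells and 223 CPM in Control cells, and the median cell had 4.71 and 0.528 UMIs per 10000. In other chondrocytes it was at 876 and 642 CPM, so the Control Tnmd/Thbs4/Sfrp5 chondrocytes were the low pool of the 4. Of the list of genes induced by cAMP and CRTC, through which PTH receptor signals pass, 6 of 9 measured genes were higher and 0 lower in PTH cells, with a median log2 ratio of 1.29. The 6 were Fos, Fosb, Junb, Atf3, Dusp1 and Cited2, while Nr4a1, Nr4a2 and Ptgs2 had ratios of 1.39, 0.956 and 1.35, under 1.5-fold. The same list had 4 of 17 higher and 1 lower in other chondrocytes, with a median of 0.32, so the 2 medians rest on different sets of measured genes. Collagenase digestion induces some of the same genes, and of the digestion and heat shock list 6 of 11 were higher and 1 lower (median 0.90), against 1 and 2 of 12 in other chondrocytes (0.08). The part of digestion in these values was not tested.

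Ibsp, bone sialoprotein, was at 908 CPM in PTH cells and 296 CPM in Control cells, a ratio of 3.07 (2.82 to 3.34), while its ratio in other chondrocytes was 9.47. Without its top cell in each pool it was 6.47 in the Tnmd/Thbs4/Sfrp5 chondrocytes. Ihh was at 34.7 and 13.4 CPM, a ratio of 2.59 (1.72 to 4.0), and at a similar ratio of 2.69 in other chondrocytes. In Sfrp5-led cells alone the Ihh ratio was 0.927 (0.532 to 1.68), an interval that includes 1. Within tendon-led cells the Ihh ratio was 5.30 (2.83 to 10.8), from a Control level of 6.92 CPM. Of hypertrophy genes 5 of 10 were higher and 0 lower in PTH cells, with a median log2 ratio of 0.70. Mgarp, a mitochondrial protein, had ratios of 3.85 and 0.804. Fabp4, a fatty acid carrier of endothelium and fat, had a ratio of 5.95, but 62.2% of its PTH UMIs came from 1 cell and the ratio was 0.600 without the cells with Kera or endothelial UMIs. Grem1 had ratios of 2.31 and 2.35, and Frzb, a WNT antagonist of cartilage related to Sfrp5, of 1.92 and 1.39.

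Among the lower genes, Matn1 was at 17.7 CPM in PTH cells and 118 CPM in Control cells, a ratio of 0.150 (0.110 to 0.201), against 0.959 in other chondrocytes. Spink5, a protease inhibitor, was at 7.71 and 51.4 CPM, a ratio of 0.150 (0.0925 to 0.234), and 0.368 in other chondrocytes. Tgfbi, a matrix protein induced by TGF-beta, was at 51.1 and 206 CPM, a ratio of 0.248 (0.206 to 0.297), and lower in other chondrocytes also (0.325). Ucma was at 2249 and 4678 CPM, a ratio of 0.481, and at 1.04 in other chondrocytes. Acan, Comp and Matn3 had ratios between 1.01 and 1.15.

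Of the genes named, Igf2, Mest, Meg3 and Rian are known to be imprinted in mice. Igf2, a growth factor, was at 47.2 CPM in PTH cells and 159 CPM in Control cells, a ratio of 0.297 (0.244 to 0.361), and 0.891 in other chondrocytes. Mest, an enzyme of the hydrolase family, was at 174 and 458 CPM, a ratio of 0.380, and 1.55 in other chondrocytes. The noncoding RNAs Meg3 and Rian had ratios of 0.350 and 0.339, and of 0.538 and 0.534 in other chondrocytes. In Sfrp5-led cells alone Igf2 had a ratio of 0.438 and Meg3 of 0.606. Mest and Rian had ratios there of 0.846 (0.622 to 1.16) and 0.895 (0.526 to 1.57), with intervals that include 1. Within tendon-led cells their ratios were 0.339 and 0.281. Postn, a matrix protein of periosteum, had a ratio of 0.366 against 0.574 in other chondrocytes, and Adgrg6, an adhesion receptor, of 0.300 against 1.27.

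**Figure D5:**
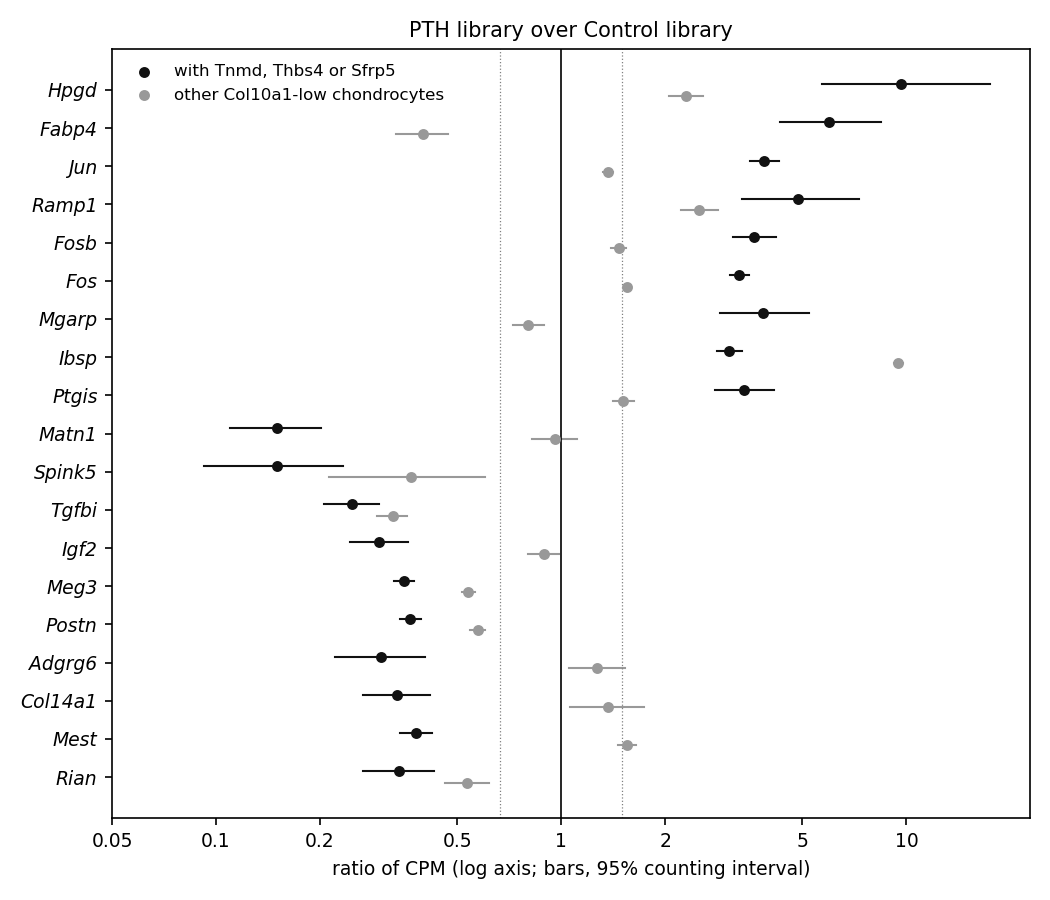
Ratio of summed CPM in the PTH library over the Control library, on a logarithmic axis, for Tnmd/Thbs4/Sfrp5 chondrocytes (black) and other Col10a1-low chondrocytes (grey). Bars are 95% counting intervals and dotted lines mark 1.5-fold either way. Jun, Fosb and Fos lie farther right in black than in grey, and Matn1, Igf2 and Mest lie left in black with grey at 0.959, 0.891 and 1.55.

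The make-up of the pools bears on these ratios, since Sfrp5-led cells were 40.3% of PTH and 19.5% of Control cells. Of 3647 genes in Sfrp5-led cells 8.72% were higher and 12.6% lower in the PTH library, and of 5864 in tendon-led cells 7.66% and 6.57%. Within Sfrp5-led cells Fos had a ratio of 5.95 and Tgfbi of 0.259. Within tendon-led cells the same ratios were 2.55 and 0.278. Tnmd, a rule gene given as a description, had a ratio of 0.525 (0.469 to 0.588) within tendon-led cells and 1.504 (0.960 to 2.44) within Sfrp5-led cells. Scx had a ratio of 0.473 (0.301 to 0.736) over all cells, from 35 PTH and 55 Control UMIs. Within tendon-led cells its ratio was 0.664 (0.384 to 1.13), an interval that includes 1, and in Sfrp5-led cells it had too few UMIs for a ratio.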

How the data were processed

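Per the file headers, Cell Ranger 4.0.0 made the deposited matrices, which give the deposited raw counts of UMIs for each barcode and gene, and per the submitters' processing notes mm10 and Seurat were used. The sources used here give no filter on barcodes, and the lowest barcode total was 500 UMIs. Each matrix has 32285 gene rows, 78 of which share a symbol and were kept apart. Strand and multimapping settings were not given either.

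Cells were selected as described above. UMIs were summed over the cells of a pool and library and given as CPM of that sum. A gene got a ratio where the pools compared held 50 or more of its UMIs together, with exact conditional binomial intervals, and shares carry Clopper-Pearson intervals at 95%. A count of 0 was held at 3 counts. Summed over the Tnmd/Thbs4/Sfrp5 chondrocytes there were 3112231 PTH, 125074 YKL and 2314650 Control UMIs, and over other chondrocytes 5961729, 4660122 and 19113154. UMIs from 1 library are not biological replicates. A gene is called higher or lower at 1.5-fold, and 25 gene lists (278 symbols) were used. The members and lists were chosen with earlier results of these data known.

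Named were the rule genes and 21 genes always given. To these were added the 10 genes higher and the 10 lower against other chondrocytes, and the same for PTH against Control, plus 8 each way for Sfrp5-led against tendon-led cells, over all libraries and within PTH. These had at least 50 CPM in 1 pool and the interval bound nearest to 1 farthest from it, and mitochondrial, ribosomal and predicted genes were left out. Up to 4 genes of each list, those with the most UMIs, could be named by the rule, and list genes named beyond these were chosen after their values were seen. No doublet caller was run, and most doublets are taken to remain. Leaving out the deepest 5% of barcodes, and cells with Kera or endothelial UMIs, were alternatives. The code (Python 3.11.15, NumPy 2.4.6, SciPy 1.17.1, pandas 2.3.3) was tested on simulated data. Of the genes the rule named, 1 is not reported here.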

Additional observations from a re-analysis of the deposited data

Results flagged for a closer look

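For 4 of the named genes the ratio of Tnmd/Thbs4/Sfrp5 chondrocytes over other chondrocytes lay at least 1.5-fold above 1 in one library and 1.5-fold below 1 in the other. With 1 library per group, the difference between the libraries was not tested. Matn1 had a ratio of 0.4561 in the PTH library and 2.92 in the Control library. It had a UMI in 16 of 139 PTH and 45 of 123 Control Tnmd/Thbs4/Sfrp5 chondrocytes, and the most heavily loaded cell gave 18.2% of the PTH and 13.9% of the Control UMIs. Igf2 had a ratio of 0.6043 in the PTH library and 1.812 in the Control library, with a UMI in 42 and 63 of these cells. Ndufa4l2 had a ratio of 1.505 in the PTH library and 0.5078 in the Control library, with a UMI in 127 and 98 of them. Fabp4 had a ratio of 4.189 in the PTH library and 0.2796 in the Control library, with 62.2% of the PTH UMIs from 1 cell. Fabp4 was at 9417 CPM in the endothelial cells of the PTH library and 10720 CPM in those of the Control library. Without the cells with Kera or endothelial UMIs the PTH ratio of Fabp4 was 0.427, and with a minimum of 3 rule UMIs its Control ratio was 2.346.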

How the results depend on the processing

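The YKL share and the counts not named here stayed within 1.5 times the reported value or within its interval under each alternative, which was so for 115 of 142 recomputed shares and counts. With a minimum of 3 rule UMIs the share of Col10a1-low chondrocytes was 43.01% in the PTH and 17.65% in the Control library, with 10 it was 14.62% and 4.167%, and with the 3 genes at 0.05% of UMIs or more it was 13.77% and 5.474%. In cells thinned to 5000 UMIs the PTH share was 25.17%.

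Genes higher than in other PTH chondrocytes numbered 415 as reported, 881 with 20 UMIs per gene, 83 with 200 and 110 at 2-fold. Genes lower there numbered 336 as reported, 714 with 20 UMIs per gene, 71 with 200, 75 at 2-fold, 548 with 10 rule UMIs and 775 with the 0.05% rule. In the Control library 1076 were higher, 388 with 200 UMIs per gene, 328 at 2-fold and 717 without each gene's top cell (an alternative chosen after seeing the data), and 1041 were lower, 465 with 200 UMIs per gene and 496 at 2-fold. For PTH against Control, 543 genes were higher, 1030 with 20 UMIs per gene, 181 with 200, 184 at 2-fold and 318 in Sfrp5-led cells alone, and 538 were lower, 1001 with 20 UMIs per gene, 146 with 200 and 89 at 2-fold.

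Of the ratios and list medians, 3798 stayed, 1084 moved and 20 turned. Under the 0.05% rule Col14a1 had 0.5407 and Stmn1 0.928 in the PTH library, Stmn1 0.4838 and Cks2 0.3463 in the Control library, and the medians were -0.43 (PTH) and -0.89 (Control) for G2 and M phase and -0.031 for PTH fibroblast genes. With 10 rule UMIs Col14a1 had 0.4702 in the PTH and Pdgfa 0.8673 in the Control library. With 3, Matn1 had 1.02 in the PTH library, Fabp4 2.346 and neutrophil genes a median of 0.062 in the Control library, and Fabp4 0.7096 for PTH against Control. Without the deepest 5% of barcodes Cks2 had 0.831 in the PTH library, and with cells weighted equally Spp1 had 0.9572 in the Control library. Without cells with Kera or endothelial UMIs (also chosen after seeing the data) Fabp4 had 0.4271 in the PTH library and 0.6003 for PTH against Control. For PTH against Control in Sfrp5-led cells alone Tnmd had 1.504 and Ihh 0.9275, and with 20 UMIs per gene the articular list had a median of 0.26. The cause of these changes was not tested. No paired analysis was possible because each group has 1 library, and for the same reason no replicate could be left out. A gene under 50 UMIs in a pool pair has no ratio, which limits the lowly detected transcription factors most.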

Other observations

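Secreted WNT antagonists other than Sfrp5 did not follow one direction, and those other than Frzb were few in UMIs. Frzb was at 318.4 CPM in PTH and 165.5 CPM in Control Tnmd/Thbs4/Sfrp5 chondrocytes. Sfrp2 was at 26.0 CPM in PTH Tnmd/Thbs4/Sfrp5 chondrocytes and 8.05 CPM in other PTH chondrocytes, a ratio of 3.23 (2.24 to 4.72), and at 13.0 and 6.80 CPM in the Control library, a ratio of 1.91 (1.24 to 2.85). Notum, an enzyme that inactivates WNT ligands, had a PTH ratio of 0.362 (0.216 to 0.581) and a Control ratio of 2.78 (1.85 to 4.09). Sfrp4 had a ratio of 9.29 (5.61 to 15.4) in the Control library, at 15.6 and 1.67 CPM. Of the list, 1 of 5 genes was higher and 1 lower in the PTH library, and 4 of 6 were higher and 1 lower in the Control library. The Control median log2 ratio of 1.12 was 0.39 without each gene's top cell.

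Among genes of TGF-beta and BMP signalling, Tgfbr2, a TGF-beta receptor, had a PTH ratio over other chondrocytes of 1.52 (1.24 to 1.87) and a Control ratio of 2.61 (2.16 to 3.15). Noggin (Nog), a BMP antagonist, ran against Grem1, with PTH and Control ratios of 0.441 (0.313 to 0.610) and 0.424 (0.279 to 0.620), and Bmp2 had ratios of 0.561 (0.357 to 0.856) and 0.368 (0.146 to 0.777). The list had 7 of 22 genes higher and 2 lower in the PTH library and 6 of 23 higher and 3 lower in the Control library. Of insulin-like growth factor genes 5 of 8 were higher and 1 lower in the Control library (median log2 ratio 0.74), and 1 of 8 was higher and 2 lower in the PTH library (0.13).

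The sum of neutrophil genes was 6.11 CPM in Tnmd/Thbs4/Sfrp5 chondrocytes and 15.8 CPM in other chondrocytes of the PTH library. For Control cells it was 50.1 and 822 CPM. The sum of endothelium genes was 64.3 and 35.1 CPM in the PTH and 39.3 and 30.55 CPM in the Control library. Without each gene's top cell, 3 of 4 were higher in the PTH library and 4 of 5 lower in the Control library. For PTH 12 of 139 and 8 of 333 cells held a Kera UMI or at least 3 UMIs of Pecam1, Cdh5 and Emcn. For Control it was 1 of 123 and 12 of 1101. The source of these UMIs was not tested. Among barcodes left out for over 10% mitochondrial UMIs, 2 of 26 in the PTH, 0 of 1 in the YKL and 0 of 53 in the Control library met the rest of the rule.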
